A study of Mus musculus with 12 samples.

Results

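The antioxidant and glutathione enzymes of the neonatal mouse lung were followed across genotype and endotoxin treatment. Members were the protein-coding genes named as glutathione S-transferases of the alpha, kappa, mu, omega, pi and theta classes (Gsta, Gstk, Gstm, Gsto, Gstp and Gstt), microsomal glutathione transferases (Mgst), glutathione peroxidases (Gpx), peroxiredoxins (Prdx), thioredoxin reductases (Txnrd) and superoxide dismutases (*Sod1*, *Sod2* and *Sod3*), together with *Nqo1*, *Gclc*, *Gclm*, *Srxn1*, *Slc7a11*, *Cat* and *Nfe2l2*. The rule used gene names only and found 52 of 21950 protein-coding genes, of which 46 had enough counts to be tested.

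Whole lungs of 12 C57Bl/6J mice were sequenced on postnatal day 5, 3 mice in each of 4 groups: WT (Adm+/+) mice given PBS (libraries 3, 4 and 5), WT mice given LPS (libraries 9, 10 and 11), Adm+/- mice given PBS (libraries 6, 7 and 8) and Adm+/- mice given LPS (libraries 1, 2 and 12). Adm+/- mice have 1 working adrenomedullin allele in all cells and were used because loss of both alleles is lethal to the embryo, and the targeted allele came from 129/SvEv mice that were backcrossed to C57BL/6J. LPS, an endotoxin of Escherichia coli O55:B5, was injected intraperitoneally at 6 mg/kg in 3 daily doses, or PBS in its place, with lung collection 6 h after the final injection. Library numbers stand for mice and pair nothing across groups, and p-values measure the spread between these mice. Levels are TMM-normalised read counts relative to library size (CPM, the usual counts-per-million unit), and calls required an adjusted p under 0.05 with a log2 fold change beyond 0.5 in either direction.

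Total counts ran from 22382535 to 38062873 per library, and the members took 0.139% to 0.315% of them. *Adm* itself ranged from 2.87 to 8.15 CPM, and its genotypes overlapped in both treatments (log2 fold change −0.50 in PBS, standard error 0.32, adjusted p = 0.999, and −0.55 in LPS, standard error 0.31, adjusted p = 0.48). WT PBS replicate 5 and Adm+/- PBS replicate 6 stood apart, with 77.8% and 80.1% of counts on protein-coding genes against 84.3% to 87.6% elsewhere. Lung markers were present in every library, with summed levels of 13910 to 18810 CPM for 9 type II pneumocyte genes and 1812 to 2419 CPM for 6 type I pneumocyte genes.

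Superoxide dismutases turn superoxide into hydrogen peroxide, which catalase, glutathione peroxidases and peroxiredoxins convert to water. Glutathione is built from cysteine, which enters the cell as cystine through the transporter subunit *Slc7a11*, and glutamate-cysteine ligase, made of the catalytic subunit *Gclc* and the modifier subunit *Gclm*, carries out the rate-limiting step. Glutathione S-transferases couple glutathione to electrophiles such as lipid peroxidation products. Many of these genes are targets of NRF2 (*Nfe2l2*), a transcription factor that binds antioxidant response elements with small MAF proteins and is held back in the cytosol by *Keap1*. The neonatal lung depends on these enzymes as it meets air oxygen, and activated phagocytes release superoxide and peroxide.

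Promoter sequences show how far the NRF2 recognition core, TGACNNNGC, is shared by the members. The RefSeq promoter table for GRCm38.p6 gives 250 bases before and 50 after each start site and held 46 of the 52 members, with no entry for *Gclc*, *Gsta4*, *Gstt2*, *Prdx6*, *Prdx6b* and *Sod3*. On either strand, the core was found in 12.4% of all 32851 promoters and in 14% of 27025 genes, against 10 of the 46 members (21.7%). Among the 12 members in the table that rose after LPS in either genotype, 5 held it, and these were *Gclm*, *Mgst1*, *Nfe2l2*, *Srxn1* and *Txnrd1*. The core also stood in the windows of *Gsta3*, *Gstm5*, *Gstm7*, *Prdx1* and *Sod1*. TGACTCAGC, which contains the core, was found in 0.454% of promoters and, among the members, in *Prdx1* alone. The matches in members that rose and that lie before the start site are shown first, with 45 bases on each side where the window allows, then that of *Prdx1*, and then the 250 bases before the start of *Slc7a11*, the member with the largest rise, whose window held no match. Sequences run 5′ to 3′ on the strand of the gene, and capitals mark the match. The *Gclm* stretch lies at chr3:122245378-122245476 (plus strand), with the match starting 134 bases before the start site. The *Mgst1* stretch lies at chr6:138140426-138140524 (plus strand), with the match at −56. The *Nfe2l2* stretch lies at chr2:75704850-75704913 (minus strand), with the match at −240. The *Txnrd1* stretch, from the only 1 of its 3 listed promoters with a match, lies at chr10:82859069-82859167 (plus strand), with the match at −92. The *Prdx1* stretch lies at chr4:116685421-116685519 (plus strand), with the match at −133. The *Slc7a11* window lies at chr3:50443614-50443863 (minus strand).
Gclm: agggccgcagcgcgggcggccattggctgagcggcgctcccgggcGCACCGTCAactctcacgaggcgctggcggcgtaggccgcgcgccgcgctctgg
Mgst1: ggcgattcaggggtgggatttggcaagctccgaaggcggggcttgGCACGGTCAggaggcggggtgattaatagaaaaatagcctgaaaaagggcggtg
Nfe2l2: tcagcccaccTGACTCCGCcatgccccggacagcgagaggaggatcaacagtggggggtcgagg
Txnrd1: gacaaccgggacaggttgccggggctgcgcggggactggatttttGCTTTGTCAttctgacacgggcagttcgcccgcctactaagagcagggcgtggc
Prdx1: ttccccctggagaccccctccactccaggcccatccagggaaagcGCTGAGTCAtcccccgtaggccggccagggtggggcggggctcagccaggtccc
Slc7a11: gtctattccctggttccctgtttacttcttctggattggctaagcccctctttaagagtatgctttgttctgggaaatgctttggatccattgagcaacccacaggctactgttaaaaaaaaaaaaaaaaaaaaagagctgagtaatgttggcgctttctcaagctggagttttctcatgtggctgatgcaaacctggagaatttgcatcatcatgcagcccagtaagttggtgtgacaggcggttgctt

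*Srxn1* held its match 29 bases after the start site. No match says only that these letters are not in the window, and binding was not measured.

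After LPS, 17 of the 46 tested members changed in WT mice, 12 higher and 5 lower, and 17 changed in Adm+/- mice, 11 higher and 6 lower. Over all 15885 genes tested, 17.6% were called in WT mice (10.5% higher and 7.09% lower) and 25.0% in Adm+/- mice (12.8% higher and 12.2% lower), against 37% of the members in each genotype. The median log2 fold change of the members was 0.22 in WT and 0.07 in Adm+/- mice, beside 0.01 and −0.01 for all genes. The calls had 11 members in common (8 higher and 3 lower), 64.7% of the calls of either genotype. *Gpx1*, *Gsta4*, *Gsto1*, *Mgst2*, *Gstm4* and *Gstm7* were called in WT mice and not in Adm+/- mice, *Gclm*, *Nfe2l2*, *Txnrd1*, *Gpx8*, *Gstt2* and *Gstt3* were called in Adm+/- mice and not in WT mice, and 23 members were called in neither. LPS and PBS libraries did not overlap for 13 members that were higher and 6 that were lower in WT mice (background 36.2% of all genes), and for 16 and 11 in Adm+/- mice (background 53.7%). In WT mice calls rested more on single libraries, with 9 members called without WT LPS replicate 9, and 5 (*Slc7a11*, *Sod2*, *Gpx2*, *Gpx3* and *Gstt1*) when only the 6 WT libraries were fitted. *Slc7a11*, *Sod2* and *Gpx3* in WT mice, and 10 members in Adm+/- mice, were called under every alternative run.

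**Figure D1:**
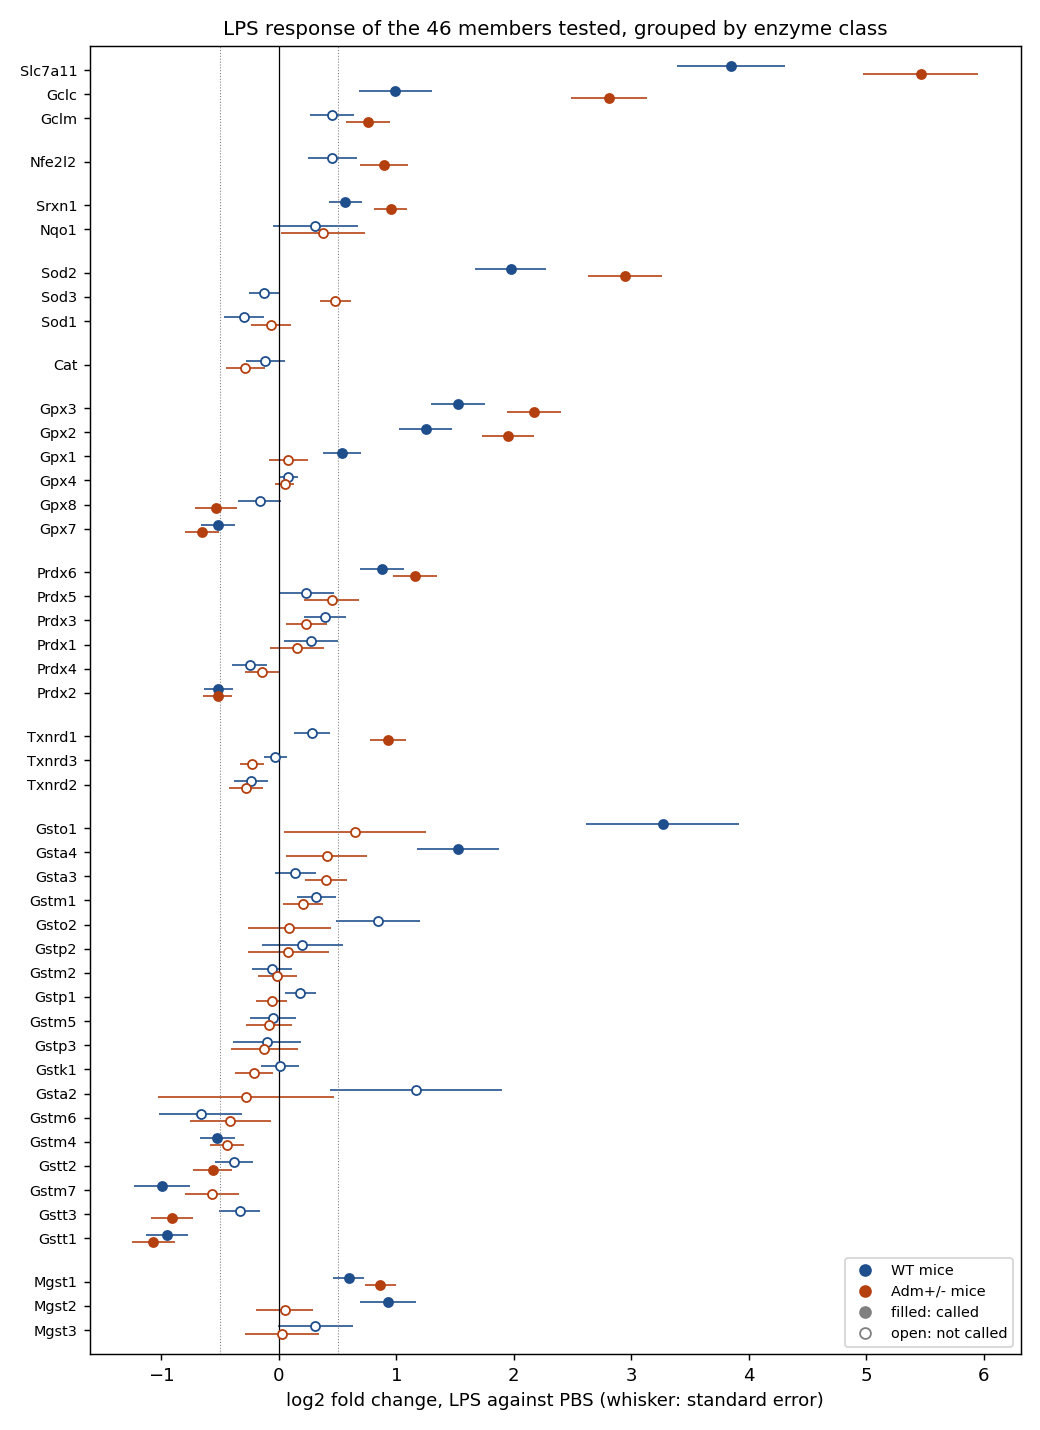
Log2 fold change of LPS against PBS (horizontal axis) for the 46 members tested, grouped by class, in WT mice (blue) and Adm+/- mice (orange), with standard errors as whiskers, filled points for calls and dotted lines at a log2 fold change of 0.5 in each direction. *Slc7a11* sits farthest to the right in both genotypes, at 3.85 and 5.46, *Gsto1* reaches 3.27 in WT mice and is called there alone, and the theta class transferases sit on the left.

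Genes of glutathione supply rose, 2 of 3 in WT mice and 3 of 3 in Adm+/- mice. *Slc7a11* was at 2.17, 3.20 and 0.927 CPM in WT PBS and at 50.3, 27.3 and 15.1 CPM in WT LPS. It was at 0.9995, 1.66 and 1.51 CPM in Adm+/- PBS and at 64.3, 67.1 and 56.1 CPM in Adm+/- LPS. Every LPS library lay above every PBS library, and the Adm+/- LPS libraries lay above the WT LPS libraries. The rise was 14.4-fold in WT mice (log2 fold change 3.85, standard error 0.46, adjusted p = 0.000379) and 44.1-fold in Adm+/- mice (log2 fold change 5.46, standard error 0.49, adjusted p = 6.09e-05), and the difference between the genotypes did not pass (1.61, standard error 0.63, adjusted p = 0.523).

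*Gclc*, the catalytic subunit of glutamate-cysteine ligase, was at 75.7, 114 and 86.0 CPM in WT PBS and at 231, 228 and 89.0 CPM in WT LPS. Its levels were 87.4, 78.2 and 66.0 CPM in Adm+/- PBS and 436, 653 and 535 CPM in Adm+/- LPS. WT LPS replicate 11 lay within the WT PBS range, while the Adm+/- groups were far apart. The rise was 1.99-fold in WT mice (log2 fold change 0.99, standard error 0.31, adjusted p = 0.0411) and 7.01-fold in Adm+/- mice (2.81, standard error 0.33, adjusted p = 0.000143). Leaving out single libraries removed the WT call in 9 of 12 cases, at an adjusted p of 0.174 without WT LPS replicate 9 (log2 fold change 0.78), 0.119 without WT LPS replicate 10, 0.0954 and 0.0894 without WT PBS replicates 3 and 5, and 0.0505 to 0.0604 for Adm+/- PBS 7 or 8 or any Adm+/- LPS library. The difference between the genotypes in the response was 1.82 (standard error 0.44, adjusted p = 0.234), the smallest adjusted p among the members, and it passed with DESeq2 (adjusted p = 0.00713).

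*Gclm*, the modifier subunit, was at 43.1, 49.8 and 27.2 CPM in WT PBS, 57.4, 58.0 and 49.4 CPM in WT LPS, 36.1, 47.3 and 44.97 CPM in Adm+/- PBS and 68.5, 74.4 and 74.8 CPM in Adm+/- LPS. Its rise was called in Adm+/- mice (log2 fold change 0.76, standard error 0.19, adjusted p = 0.01), where the groups did not overlap, and the WT value was 0.46 (standard error 0.19, adjusted p = 0.102). Exons of *Gclm* overlap Gm17494 on the opposite strand and Gm6061 on the same strand, and the strand option of the counting is not given in the sources used here.

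**Figure D2:**
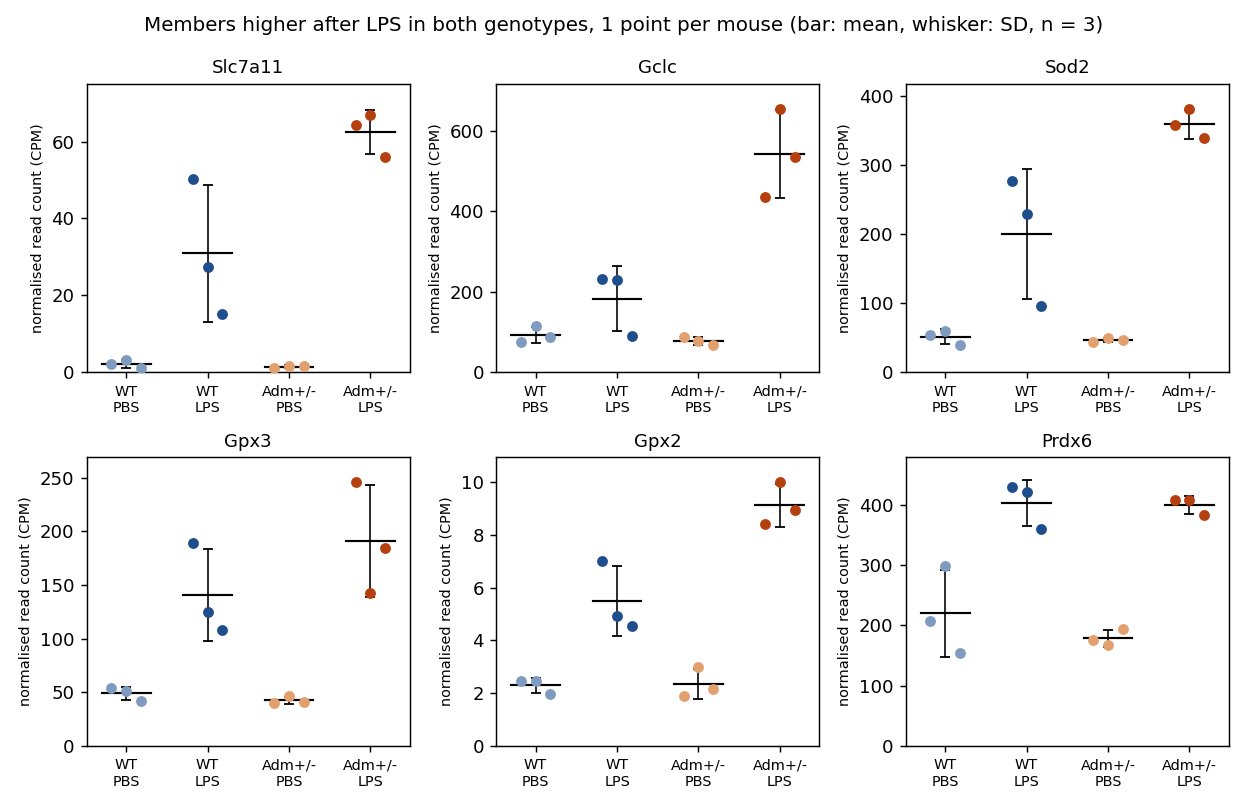
Normalised read count in CPM (vertical axes, from 0) of 6 members that rose in both genotypes, with 1 point per mouse, the mean as a bar and the SD as a whisker (n = 3 per group). In the *Slc7a11*, *Gclc* and *Sod2* panels the Adm+/- LPS points lie above all WT LPS points, which spread from 15.1 to 50.3, 89.0 to 231 and 95.5 to 276 CPM, whereas in the *Prdx6* panel both LPS groups lie between 359 and 429 CPM.

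Of 19 further genes of glutathione synthesis, recycling and breakdown, 6 rose and 1 fell in WT mice and 5 rose and 1 fell in Adm+/- mice, with medians of 0.25 and 0.32. That is 36.8% and 31.6% called, beside 17.6% and 25.0% of all genes. *Ggt1*, gamma-glutamyltransferase, which opens extracellular glutathione so that its amino acids can be taken up, went from 0.309–0.631 CPM in WT PBS to 7.44–12.1 CPM in WT LPS and from 0.210–0.406 CPM in Adm+/- PBS to 5.36–9.83 CPM in Adm+/- LPS (log2 fold changes 4.38 and 4.55, standard errors 0.34 and 0.35, adjusted p = 4.48e-05 and 4.02e-05). *Gsr*, glutathione reductase, which returns oxidised glutathione to its reduced form, went from 40.3–55.5 to 103–189 CPM (WT) and from 42.03–48.1 to 134–149 CPM (Adm+/-) (1.46 and 1.66, standard errors 0.21 in each, adjusted p = 0.00086 and 0.000207). Their differences between genotypes in the response were 0.17 (adjusted p = 0.996) and 0.20 (adjusted p = 0.995). *Ggt6* was called in WT mice (2.01, standard error 0.43, adjusted p = 0.0076) and stood at 1.11 in Adm+/- mice (standard error 0.41, adjusted p = 0.0586).

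*Nfe2l2* mRNA, which encodes NRF2, was at 81.5, 82.1 and 43.1 CPM in WT PBS and 103, 89.7 and 91.0 CPM in WT LPS. In Adm+/- mice it was at 58.9, 76.0 and 71.6 CPM in PBS and 126, 142 and 116 CPM in LPS. LPS libraries lay above PBS libraries in both genotypes, and the rise was called in Adm+/- mice (log2 fold change 0.90, standard error 0.21, adjusted p = 0.00757) and not in WT mice (0.45, standard error 0.21, adjusted p = 0.136). The difference between these responses was 0.44 (standard error 0.29, adjusted p = 0.847).

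Of 11 genes of NRF2 control, edgeR called 0 in WT mice (3 at an unadjusted p under 0.05), 3 in Adm+/- mice, all higher, and 0 in the difference between genotypes (3 at an unadjusted p under 0.05). The Adm+/- share of 27.3% was near the 25.0% of all genes, and the WT share was 0% beside 17.6%. The median log2 fold change of the 11 genes was 0.19 in WT mice and 0.46 in Adm+/- mice. *Keap1*, the adaptor that directs NRF2 to degradation, stood at 48.4 to 65.8 CPM in all libraries and was not called (0.00, adjusted p = 0.995, for WT and 0.15, adjusted p = 0.393, for Adm+/- mice). *Bach1*, a repressor that competes for the same elements, was at 106–139 CPM in WT PBS and 155–204 CPM in WT LPS (0.45, standard error 0.13, adjusted p = 0.0351, under the limit on fold change), and rose in Adm+/- mice from 107–128 to 203–225 CPM (0.87, standard error 0.13, adjusted p = 0.000696). *Maff*, a small MAF partner, was at 21.2–46.6 and 32.1–55.2 CPM in WT PBS and LPS (0.47, adjusted p = 0.269) and rose from 19.7–37.1 to 75.7–86.4 CPM in Adm+/- mice (1.59, standard error 0.30, adjusted p = 0.00249).

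Members known as NRF2 targets were not all called. *Srxn1*, sulfiredoxin, which reactivates over-oxidised peroxiredoxins, was at 11.7, 9.12 and 9.45 CPM in WT PBS, 15.9, 15.6 and 13.4 CPM in WT LPS, 10.6, 10.6 and 9.06 CPM in Adm+/- PBS and 18.5, 21.4 and 18.7 CPM in Adm+/- LPS. It rose in WT mice (log2 fold change 0.57, standard error 0.14, adjusted p = 0.0167) and in Adm+/- mice (0.95, standard error 0.14, adjusted p = 0.000545), and its WT call was lost without WT PBS replicate 4 (0.49, adjusted p = 0.0551) or WT LPS replicate 9 (0.51, adjusted p = 0.0711). *Nqo1*, the quinone reductase that serves as a standard NRF2 target, ranged from 1.36 to 3.85 CPM over all libraries, its groups overlapped, and it was called in neither genotype (0.31, standard error 0.36, adjusted p = 0.564, and 0.37, standard error 0.36, adjusted p = 0.464). Beside 17.6% of all genes in WT and 25.0% in Adm+/- mice, 30.4% and 39.1% of 23 other NRF2 target genes were called. Of these 23 targets, 6 rose and 1 fell in WT mice and 8 rose and 1 fell in Adm+/- mice. Among them *Hmox1*, heme oxygenase, went from 17.4–30.4 to 64.2–121 CPM (WT) and from 21.9–26.2 to 85.0–95.3 CPM (Adm+/-) (1.93 and 1.87, standard errors 0.23 in each, adjusted p = 0.000424 and 0.000209). *Fth1*, the ferritin heavy chain, rose by 1.81 and 2.19 (standard errors 0.23 in each, adjusted p = 0.00048 and 8.79e-05).

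Of the superoxide dismutases, *Sod2* rose in both genotypes, and *Sod1* and *Sod3* were not called. *Sod2*, the mitochondrial manganese enzyme, was at 53.9, 60.0 and 38.9 CPM in WT PBS and 276, 228 and 95.5 CPM in WT LPS. It was at 43.7, 49.9 and 46.3 CPM in Adm+/- PBS and 358, 381 and 339 CPM in Adm+/- LPS. LPS libraries lay above all PBS libraries, and all Adm+/- LPS libraries lay above the WT LPS libraries, of which replicate 11 was lowest. The rise was 3.92-fold in WT mice (log2 fold change 1.97, standard error 0.31, adjusted p = 0.00151) and 7.71-fold in Adm+/- mice (2.95, standard error 0.32, adjusted p = 9.85e-05), with a difference of 0.97 between genotypes (standard error 0.42, adjusted p = 0.594).

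*Sod1*, the cytosolic copper-zinc enzyme, ranged from 127 to 217 CPM, with values of −0.30 in WT mice (standard error 0.17, adjusted p = 0.224) and −0.07 in Adm+/- mice (standard error 0.17, adjusted p = 0.792). *Sod3*, the secreted form, was at 31.7, 31.5 and 40.3 CPM in WT PBS, 33.5, 32.4 and 29.1 CPM in WT LPS, 30.2, 25.5 and 25.2 CPM in Adm+/- PBS and 42.04, 35.1 and 35.6 CPM in Adm+/- LPS. Its value in Adm+/- mice was 0.48 (standard error 0.13, adjusted p = 0.0175), just under the limit on fold change, and −0.12 in WT mice (standard error 0.13, adjusted p = 0.518). Catalase, the peroxisomal enzyme encoded by *Cat*, ranged from 86.0 to 145 CPM and was not called (−0.12, adjusted p = 0.635, in WT mice and −0.29, adjusted p = 0.21, in Adm+/- mice, standard error 0.16 in each).

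Of the 6 glutathione peroxidases tested, 3 rose and 1 fell in WT mice and 2 rose and 2 fell in Adm+/- mice. *Gpx3*, the form secreted into plasma, was at 53.6, 50.9 and 41.9 CPM in WT PBS, 189, 125 and 108 CPM in WT LPS, 39.9, 46.1 and 41.3 CPM in Adm+/- PBS and 246, 143 and 185 CPM in Adm+/- LPS. It rose 2.87-fold in WT mice (log2 fold change 1.52, standard error 0.23, adjusted p = 0.00121) and 4.50-fold in Adm+/- mice (2.17, standard error 0.23, adjusted p = 9.72e-05), and the LPS groups overlapped between genotypes. *Gpx2*, the epithelial form best known from the gut, was at 2.45, 2.48 and 1.98 CPM in WT PBS, 6.996, 4.91 and 4.54 CPM in WT LPS, 1.89, 2.97 and 2.15 CPM in Adm+/- PBS and 8.41, 10.01 and 8.94 CPM in Adm+/- LPS. It rose 2.38-fold in WT mice (1.25, standard error 0.22, adjusted p = 0.0032) and 3.87-fold in Adm+/- mice (1.95, standard error 0.22, adjusted p = 0.000131). A pseudogene, Gpx2-ps1, shares 18.9% of the 50-base words of the *Gpx2* transcript, so the reads of these genes may be split.

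*Gpx1*, the general cytosolic form, was at 89.3, 105 and 105 CPM in WT PBS, 151, 115 and 168 CPM in WT LPS, 120, 125 and 85.0 CPM in Adm+/- PBS and 118, 108 and 122 CPM in Adm+/- LPS. It rose in WT mice (log2 fold change 0.54, standard error 0.17, adjusted p = 0.0389) and stood at 0.08 in Adm+/- mice (standard error 0.16, adjusted p = 0.749), a difference of −0.46 (adjusted p = 0.702). This call did not hold in 8 of 12 fits with a library removed, which were those without any WT PBS library (adjusted p 0.0557 to 0.0921), any Adm+/- LPS library (0.0529 to 0.057), WT LPS replicate 9 (log2 fold change 0.50, adjusted p = 0.13) or WT LPS replicate 11 (0.41, adjusted p = 0.124).

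*Gpx7* and *Gpx8*, peroxidases of the endoplasmic reticulum that assist protein folding, had calls in the lower direction. *Gpx7* was at 22.8, 21.4 and 16.6 CPM in WT PBS, 11.9, 15.6 and 15.2 CPM in WT LPS, 19.7, 21.8 and 21.4 CPM in Adm+/- PBS and 12.9, 13.4 and 13.5 CPM in Adm+/- LPS. It fell in WT mice (log2 fold change −0.52, standard error 0.15, adjusted p = 0.0275) and in Adm+/- mice (−0.66, standard error 0.15, adjusted p = 0.00572), with no overlap between treatments in either genotype. The WT call was lost without WT PBS replicate 3 (−0.43, adjusted p = 0.0728) or 4 (−0.48, adjusted p = 0.0698) or WT LPS replicate 9 (−0.41, adjusted p = 0.115). *Gpx8* was at 34.2, 29.4 and 20.5 CPM in WT PBS, 22.7, 25.0 and 27.4 CPM in WT LPS, 25.9, 33.8 and 32.3 CPM in Adm+/- PBS and 18.9, 23.6 and 21.02 CPM in Adm+/- LPS. It fell in Adm+/- mice (−0.54, standard error 0.18, adjusted p = 0.0414) and stood at −0.17 in WT mice (standard error 0.18, adjusted p = 0.529). That call depended on single libraries in 8 of 12 cases, namely Adm+/- LPS 1 (log2 fold change −0.46, adjusted p = 0.14), 2 (adjusted p = 0.0547) and 12 (adjusted p = 0.107), Adm+/- PBS 7 (adjusted p = 0.126) and 8 (adjusted p = 0.109), and WT PBS 4, WT LPS 10 and WT LPS 11 (adjusted p 0.0506 to 0.0549). *Gpx4*, which reduces lipid peroxides in membranes and guards against ferroptosis, was the steadiest peroxidase, between 76.4 and 90.5 CPM in all libraries (0.08, standard error 0.08, adjusted p = 0.509, in WT mice and 0.05, standard error 0.08, adjusted p = 0.672, in Adm+/- mice). Copies such as Gpx4-ps2 share 61.7% of the words of its transcript.

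Among 6 peroxiredoxins tested, *Prdx6* rose and *Prdx2* fell in both genotypes. *Prdx6*, a cytosolic 1-cysteine form that also takes part in surfactant lipid turnover, was at 207, 298 and 154 CPM in WT PBS, 429, 421 and 359 CPM in WT LPS, 175, 167 and 194 CPM in Adm+/- PBS and 409, 407 and 382 CPM in Adm+/- LPS. LPS libraries lay above PBS libraries in each genotype (log2 fold change 0.88, standard error 0.19, adjusted p = 0.008, in WT mice and 1.16, standard error 0.19, adjusted p = 0.000985, in Adm+/- mice), and the LPS groups overlapped between genotypes. *Prdx2*, abundant in red blood cells, was at 153, 180 and 188 CPM in WT PBS, 111, 135 and 119 CPM in WT LPS, 217, 195 and 164 CPM in Adm+/- PBS and 128, 142 and 132 CPM in Adm+/- LPS. It fell by 0.52 in WT mice (standard error 0.12, adjusted p = 0.0141) and by 0.52 in Adm+/- mice (standard error 0.12, adjusted p = 0.0087) on the log2 scale. Its WT value lay at or under the limit on fold change, from −0.46 to −0.50, without WT PBS replicates 4 or 5 or WT LPS replicates 9 or 11, and its Adm+/- value did so without Adm+/- PBS replicate 6 (−0.43) or Adm+/- LPS replicate 1 (−0.49). Of 8 erythroid genes tested, edgeR called 0 in either genotype (0 at an unadjusted p under 0.05), with a median of 0.67 and 8 of 8 values above 0 in WT mice and a median of −0.46 and 3 of 8 above 0 in Adm+/- mice. *Prdx2* exons overlap Rnaseh2a and Junb on the opposite strand. *Prdx1*, *Prdx3*, *Prdx4* and *Prdx5* had log2 fold changes between −0.25 and 0.45 and were not called. *Prdx5* shares 29.7% of its 50-base words with Trmt112, which overlaps it on the opposite strand, so its value is uncertain.

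*Txnrd1*, the cytosolic selenoenzyme that recharges thioredoxin, was at 109, 115 and 124 CPM in WT PBS, 157, 159 and 108 CPM in WT LPS, 131, 112 and 107 CPM in Adm+/- PBS and 194, 255 and 217 CPM in Adm+/- LPS. WT LPS replicate 11 lay below every WT PBS library, whereas the Adm+/- groups did not overlap. The rise was called in Adm+/- mice (log2 fold change 0.93, standard error 0.16, adjusted p = 0.00113) and the WT value was 0.28 (standard error 0.16, adjusted p = 0.206), a difference of 0.65 (standard error 0.22, adjusted p = 0.448). *Txnrd2*, the mitochondrial form, and *Txnrd3* had values from −0.28 to −0.03 and were not called.

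Of 16 thioredoxin, glutaredoxin and methionine sulfoxide reductase genes, 3 rose and 2 fell in each genotype. The share called was 31.2% in each, beside 17.6% of all genes in WT and 25.0% in Adm+/- mice. *Txn1*, the substrate of *Txnrd1*, stood at 102 to 149 CPM (0.05, adjusted p = 0.798, and 0.26, adjusted p = 0.146). *Txnip*, which binds and inhibits thioredoxin, rose from 346–429 to 558–916 CPM (WT) and from 319–416 to 701–882 CPM (Adm+/-) (0.87 and 1.10, standard errors 0.18 in each, adjusted p = 0.00708 and 0.00107). *Glrx*, a glutaredoxin, rose by 0.98 and 0.87 (standard errors 0.21 in each, adjusted p = 0.0075 and 0.00848), and *Msrb2*, a mitochondrial methionine sulfoxide reductase, fell by 1.11 and 1.12 (standard errors 0.20 in each, adjusted p = 0.00305 and 0.00154).

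Of 18 glutathione S-transferases outside the microsomal family, 2 rose and 3 fell in WT mice and 3 fell in Adm+/- mice, which is 27.8% and 16.7% called against 17.6% and 25.0% of all genes. All falls were in the theta class (Gstt) and the mu class (Gstm). *Gstt1* was at 17.7, 19.4 and 21.1 CPM in WT PBS, 7.55, 10.1 and 12.4 CPM in WT LPS, 20.04, 21.3 and 21.5 CPM in Adm+/- PBS and 9.16, 11.9 and 8.94 CPM in Adm+/- LPS. Every LPS library lay below every PBS library, and it fell by 0.95 in WT mice (standard error 0.18, adjusted p = 0.00447) and by 1.07 in Adm+/- mice (standard error 0.18, adjusted p = 0.0012) on the log2 scale. *Gstt2* and *Gstt3* lie on the same chromosome. *Gstt3* was at 12.2, 10.7 and 15.4 CPM in WT PBS, 9.34, 9.19 and 11.8 CPM in WT LPS, 14.2, 11.6 and 11.5 CPM in Adm+/- PBS and 7.07, 5.53 and 7.16 CPM in Adm+/- LPS, and its fall was called in Adm+/- mice (−0.91, standard error 0.18, adjusted p = 0.0031) and not in WT mice (−0.34, standard error 0.18, adjusted p = 0.195). *Gstt2* was at 12.8, 15.2 and 17.7 CPM in WT PBS, 11.2, 11.9 and 11.9 CPM in WT LPS, 15.8, 16.4 and 15.03 CPM in Adm+/- PBS and 11.2, 8.29 and 12.3 CPM in Adm+/- LPS. It fell in Adm+/- mice (−0.57, standard error 0.16, adjusted p = 0.0215), a call lost without Adm+/- PBS replicate 7 (−0.54, adjusted p = 0.0611) or Adm+/- LPS replicate 2 (−0.42, adjusted p = 0.0764), and the WT value was −0.38 (standard error 0.16, adjusted p = 0.113). *Gstt1* and *Gstt2* share 0% and 1.22% of their 50-base words with other genes, while *Gstt3* shares 26% with Gm20441, an overlapping gene on the same strand.

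In the mu class on chromosome 3, *Gstm7* was at 3.26, 3.98 and 3.21 CPM in WT PBS, 1.76, 1.16 and 2.31 CPM in WT LPS, 2.74, 3.31 and 3.38 CPM in Adm+/- PBS and 2.21, 2.095 and 2.07 CPM in Adm+/- LPS. Treatments did not overlap in either genotype, and the fall passed in WT mice (log2 fold change −0.996, standard error 0.24, adjusted p = 0.0129) and not in Adm+/- mice (−0.57, standard error 0.23, adjusted p = 0.0844), where it passed when only the 6 Adm+/- libraries were fitted. *Gstm4* was at 6.21, 7.13 and 8.15 CPM in WT PBS, 4.34, 5.16 and 5.42 CPM in WT LPS, 7.10, 6.49 and 6.88 CPM in Adm+/- PBS and 5.09, 4.99 and 4.99 CPM in Adm+/- LPS. It fell in WT mice (−0.53, standard error 0.15, adjusted p = 0.0278), and in Adm+/- mice its value of −0.44 (standard error 0.15, adjusted p = 0.0408) was under the limit on fold change. The WT call of *Gstm4* was lost without WT PBS replicate 4 (−0.53, adjusted p = 0.0556) or 5 (−0.43, adjusted p = 0.0702) or WT LPS replicate 9 (−0.44, adjusted p = 0.116). *Gstm1*, *Gstm2*, *Gstm5* and *Gstm6* had values from −0.67 to 0.32 and were not called. In bulk RNA, fewer cells of a type and less RNA per cell cannot be told apart. Of 7 endothelial markers, 2 fell in WT mice and 3 in Adm+/- mice (28.6% and 42.9%, beside 7.09% and 12.2% of all genes). The summed levels of these markers were 2987 to 3741 CPM in PBS and 2516 to 3042 CPM in LPS over both genotypes. Their median log2 fold change was −0.375 in WT mice, with 1 of 7 values above 0, and −0.49 in Adm+/- mice, with 3 of 7 above 0. The median of 7 lung fibroblast markers was −0.29 in WT and −0.57 in Adm+/- mice. The part of either list in these falls was not tested.

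**Figure D3:**
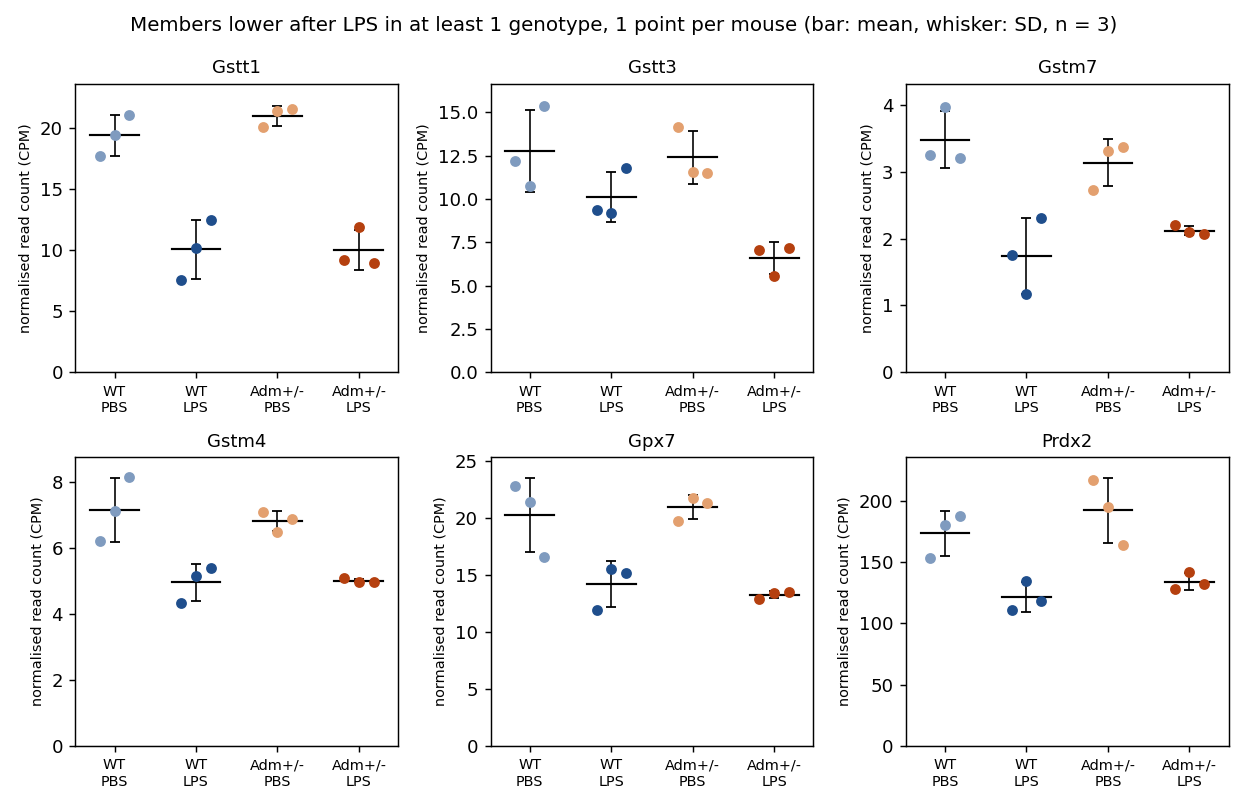
Normalised read count in CPM (vertical axes, from 0) of 6 members that fell in at least 1 genotype, with 1 point per mouse, the mean as a bar and the SD as a whisker (n = 3 per group). *Gstt1* falls from 17.7–21.5 CPM in PBS to 7.55–12.4 CPM in LPS over both genotypes, and the *Gstt3* points in Adm+/- LPS lie below those in WT LPS.

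The omega class enzyme *Gsto1*, *Gsta4* of the alpha class, which conjugates the lipid peroxidation product 4-hydroxynonenal, and the microsomal enzyme *Mgst2* rose in WT mice and followed another order of libraries. *Gsto1* was at 36.3, 27.3 and 52.6 CPM in WT PBS and at 715, 55.5 and 344 CPM in WT LPS replicates 9, 10 and 11. It was at 28.1, 32.2 and 27.7 CPM in Adm+/- PBS and at 44.95, 43.6 and 49.5 CPM in Adm+/- LPS. Replicates 9 and 11 stood far above all other libraries, while replicate 10 was close to the highest WT PBS library. The rise was called in WT mice (log2 fold change 3.27, standard error 0.65, adjusted p = 0.00561), and the Adm+/- value was 0.65 (standard error 0.60, adjusted p = 0.449), although no Adm+/- LPS library overlapped the Adm+/- PBS libraries. With only the 6 Adm+/- libraries fitted, the same value of 0.65 passed (adjusted p = 0.0014), as it did without WT LPS replicates 9 and 11 (adjusted p = 0.0423). *Gsto1* took 19.3%, 2% and 12.8% of the members' counts in the 3 WT LPS libraries and 1.22% to 2.74% elsewhere.

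*Gsta4* was at 22.1, 23.6 and 28.7 CPM in WT PBS, 111, 28.6 and 74.3 CPM in WT LPS, 21.1, 25.1 and 20.2 CPM in Adm+/- PBS and 29.2, 28.8 and 30.2 CPM in Adm+/- LPS. It rose in WT mice (log2 fold change 1.52, standard error 0.35, adjusted p = 0.0112) and stood at 0.41 in Adm+/- mice (standard error 0.35, adjusted p = 0.403). *Mgst2* was at 4.0, 3.74 and 3.09 CPM in WT PBS, 8.999, 4.62 and 7.01 CPM in WT LPS, 3.42, 3.48 and 2.98 CPM in Adm+/- PBS and 3.85, 2.72 and 3.63 CPM in Adm+/- LPS. It rose in WT mice (0.93, standard error 0.24, adjusted p = 0.0196) and stood at 0.05 in Adm+/- mice (standard error 0.24, adjusted p = 0.901). In each of the 3 genes, replicate 9 was highest, replicate 11 next and replicate 10 lowest of the WT LPS libraries.

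Several marker lists had the same order of WT LPS replicates. In replicates 9, 10 and 11, neutrophil markers summed to 2886, 1652 and 1755 CPM. Macrophage and monocyte markers were at 759, 425 and 607 CPM there, and liver markers at 66.1, 13.35 and 32.3 CPM. Skeletal muscle and erythroid markers had other orders. Squamous epithelium markers also shared the order of the 3 genes. Their summed level over 10 genes was 2821, 24.9 and 1472 CPM in WT LPS replicates 9, 10 and 11, 1.31 to 4.39 CPM in WT PBS, 0.994 to 1.28 CPM in Adm+/- PBS and 5.06 to 38.6 CPM in Adm+/- LPS. Of the 10 genes, 7 passed the filter on low counts, and edgeR called 7 in WT mice and 0 in Adm+/- mice (2 at an unadjusted p under 0.05). Genes near 0 in PBS passed that filter through the LPS libraries where they were high, so these counts are a description only. The keratins *Krt13* and *Krt4* were at 1027 and 1382 CPM in replicate 9, 9.52 and 11.02 CPM in replicate 10 and 542 and 755 CPM in replicate 11. Without replicates 9 and 11, a fit chosen after seeing the data that leaves 1 WT LPS library, assumed to vary like the other groups, the WT log2 fold changes were 0.52 for *Gsto1* (adjusted p = 0.39), 0.20 for *Gsta4* (adjusted p = 0.63), 0.35 for *Mgst2* (adjusted p = 0.565) and 0.21 for *Gpx1* (adjusted p = 0.673), while *Slc7a11*, *Gclc*, *Sod2*, *Gpx3*, *Gstt1* and *Gstm7* remained called. The calls of the other 7 were also lost, namely *Prdx6* (0.94, adjusted p = 0.0919), *Gpx2* (1.08, adjusted p = 0.0565), *Srxn1* (0.62, adjusted p = 0.121), *Mgst1* (0.50, adjusted p = 0.201), *Gstm4* (−0.47, adjusted p = 0.292), *Gpx7* (−0.39, adjusted p = 0.352) and *Prdx2* (−0.36, adjusted p = 0.347). These 2 libraries were left out because their values were high, so smaller values without them follow from that choice. Without replicate 9 alone, *Gsto1* was at 2.36 and still called, *Gsta4* at 1.05 (adjusted p = 0.0523) and *Mgst2* at 0.68 (adjusted p = 0.1), and the *Mgst2* call was also lost without WT PBS replicate 5 (0.83, adjusted p = 0.054). Skeletal muscle RNA was high in all 3 WT LPS libraries, at 638 to 1845 CPM summed over 11 genes against 8.59 to 35.98 CPM in the other groups, and all 11 genes rose in WT mice. Muscle genes low elsewhere could also pass the filter through these libraries, so that count is a description only. The part of the squamous, muscle, neutrophil, macrophage and liver RNA in the WT values was not tested.

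**Figure D4:**
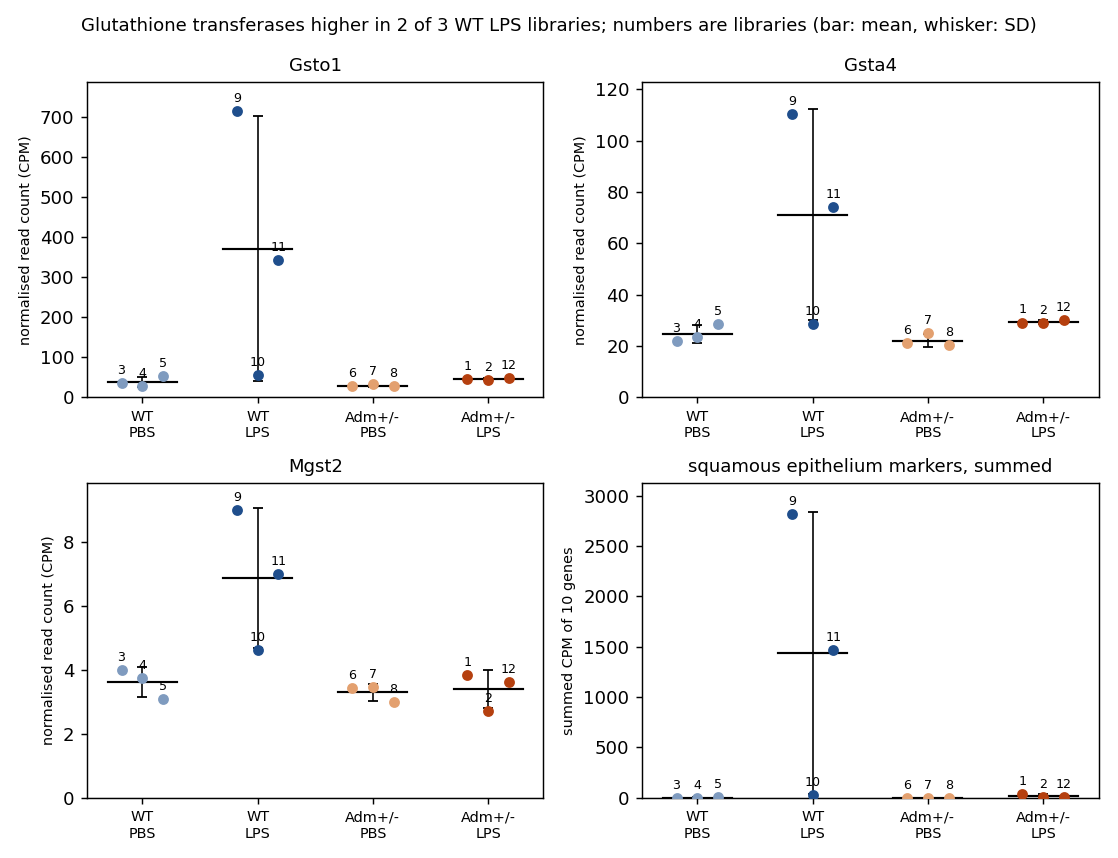
Normalised read count in CPM (vertical axes, from 0) of *Gsto1*, *Gsta4* and *Mgst2*, and the summed CPM of 10 squamous epithelium markers, with 1 numbered point per library, the mean as a bar and the SD as a whisker (n = 3 per group). Libraries 9 and 11 stand above the rest in all 4 panels, at 715 and 344 CPM for *Gsto1* and 2821 and 1472 CPM for the markers, and library 10 lies with the low libraries.

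*Mgst1*, the microsomal transferase of the endoplasmic reticulum and outer mitochondrial membrane, rose in both genotypes. It was at 55.8, 55.0 and 40.5 CPM in WT PBS, 83.5, 71.5 and 73.6 CPM in WT LPS, 43.5, 52.2 and 52.4 CPM in Adm+/- PBS and 88.9, 92.2 and 88.2 CPM in Adm+/- LPS. It rose in WT mice (log2 fold change 0.59, standard error 0.13, adjusted p = 0.00902) and in Adm+/- mice (0.86, standard error 0.13, adjusted p = 0.000647), and without WT PBS replicate 5 the WT value was 0.46 (adjusted p = 0.0157), under the limit on fold change. *Mgst3* ranged from 3.95 to 12.1 CPM and was not called. Over all genes, 10.5% rose in WT and 12.8% in Adm+/- mice. Of 6 other glutathione transferase and MAPEG genes, the protein superfamily of the Mgst enzymes, 3 rose in WT mice (50%) and 2 in Adm+/- mice (33.3%). Among them *Alox5ap*, the 5-lipoxygenase activating protein of leukotriene synthesis, rose from 5.99–9.03 to 26.7–50.6 CPM and from 6.52–9.36 to 24.8–37.9 CPM (2.41 and 2.11, standard errors 0.28 in each, adjusted p = 0.000316 and 0.000266), and *Ptges*, the inducible prostaglandin E synthase, rose by 1.33 and 1.58 (standard errors 0.26 in each, adjusted p = 0.00502 and 0.00102).

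The genotypes were compared within each treatment. In PBS, no member was called by edgeR, DESeq2 or limma-voom, and 1 member by edgeR had an unadjusted p under 0.05, with 3 by DESeq2 and 1 by limma-voom. Over all genes 0% were called and 344 had an unadjusted p under 0.05. The ranges of the genotypes did not overlap for *Gsta3* (9.93 to 11.8 CPM in Adm+/- against 12.4 to 15.5 CPM in WT mice) and *Sod3* (25.2 to 30.2 against 31.5 to 40.3 CPM), beside 4.99% of all genes.

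In LPS, *Gclc* was higher and *Gsto1* lower in Adm+/- than in WT mice, and 2.05% of all genes were called. Of all genes, 52 were higher and 273 lower. Of the markers tested, 10 of 11 skeletal muscle genes and 3 of 7 squamous epithelium genes were lower in Adm+/- mice, and their part in these values was not tested. Markers low in the other groups could pass the filter through the WT LPS libraries where they were high, so these counts are a description only. For *Gclc* the levels of 436 to 653 CPM against 89.0 to 231 CPM gave a 2.97-fold difference (log2 fold change 1.57, standard error 0.31, adjusted p = 0.0272), which was not called without Adm+/- LPS replicate 1 (1.70, adjusted p = 0.0655), 2 (1.41, adjusted p = 0.135) or 12 (1.58, adjusted p = 0.0953). For *Gsto1* the log2 difference was −3.01 (standard error 0.64, adjusted p = 0.0365), and it was −0.27 without WT LPS replicates 9 and 11 (adjusted p = 0.999). Single libraries decided that call in 9 of 12 cases, namely WT LPS 9 (−2.11, adjusted p = 0.0685) and 11 (−3.06, adjusted p = 0.0896), each Adm+/- LPS library (adjusted p 0.142 to 0.175), each Adm+/- PBS library (0.0527 to 0.0629) and WT PBS 3 (0.0511).

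The remaining values in LPS were under the threshold. *Txnrd1* (log2 fold change 0.65, standard error 0.16, adjusted p = 0.0554), *Mgst2* (−1.02, standard error 0.24, adjusted p = 0.0537), *Gsta4* (−1.28, standard error 0.35, adjusted p = 0.0851), *Gpx2* (0.73, standard error 0.21, adjusted p = 0.101) and *Gstt3* (−0.62, standard error 0.18, adjusted p = 0.107) had the smallest adjusted p among them. DESeq2 called these 5 with *Gclc* and *Gsto1*. *Txnrd1* and *Mgst2* also passed without WT PBS replicate 5 (adjusted p = 0.036 and 0.0402), as both did with *Gsta4* without WT LPS replicate 10 (adjusted p = 0.0439, 0.0081 and 0.000529). *Slc7a11* stood at 1.01 (standard error 0.39, adjusted p = 0.236), and at 1.57 without WT LPS replicate 9 (adjusted p = 0.0499). *Sod2* stood at 0.85 (standard error 0.30, adjusted p = 0.189). Genotypes did not overlap in LPS for 10 members that were higher and 4 that were lower in Adm+/- mice, beside 24.6% of all genes. The difference between genotypes in the response to LPS was called for no member by edgeR (0.145% of all genes), with 10 members at an unadjusted p under 0.05. DESeq2 called 1 member and limma-voom none, with 10 and 7 at an unadjusted p under 0.05. The 12 members called in 1 genotype had adjusted p of 0.431 or more in that test, so a call in one genotype alone does not show that the genotypes differ. Without WT LPS replicate 10, edgeR called *Gsto1* (−3.13, adjusted p = 0.0102) and *Gsta4* (−1.49, adjusted p = 0.026) in it. All these contrasts share libraries with the LPS responses and are no separate evidence.

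The 23 members called in neither genotype had log2 fold changes from −0.67 to 1.17 in WT mice and from −0.41 to 0.48 in Adm+/- mice. The outer WT values were those of *Gstm6* and *Gsta2*, both at or under 1.27 CPM in every library. *Gsto2*, next to *Gsto1* on chromosome 19, was at 2.59, 0.998 and 2.39 CPM in WT LPS replicates 9, 10 and 11 and at 0.803 to 1.26 CPM in WT PBS (0.84, standard error 0.36, adjusted p = 0.11). No pi class member was called, with *Gstp1* from 27.7 to 42.9 CPM, *Gstp2* from 1.16 to 2.84 CPM and *Gstp3* from 1.87 to 3.83 CPM. *Gstp1* and *Gstp2* share 62.3% and 72.6% of their words with other genes, mostly with each other, so their split is uncertain. *Gsta2* shares 64.2% of its words with 5 other genes, *Gsta1* among them. The 6 members that did not pass the filter were *Gpx5* with 0 counts in every library, *Gpx6* with at most 1, *Gstt4* with at most 3, *Prdx6b* with at most 4, *Gstm3* with at most 5 and *Gsta1* with at most 14 counts. A count of 0 for *Gpx5* allows up to 3 counts per library, so its absence cannot be stated.

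Levels between genes were compared per kb of all annotated exon of a gene, which can be longer than its transcript. For *Sod1* this was 3970 bases, against 641 in its longest coding transcript. For *Gpx1* it was 1441 against 1072 bases, so the order depends on the length used. The mean over 12 libraries was highest for *Gpx1* at 81.7 CPM per kb, then *Prdx6* at 62.5, *Gsto1* at 60.0, *Gclc* at 59.3 and *Gpx3* at 58.3 CPM per kb. The order differed between groups. *Gpx1* led in both PBS groups, at 69.3 and 76.2 CPM per kb in WT and Adm+/- mice, *Gsto1* led in WT LPS at 184 CPM per kb (*Gpx1* at 101) and *Gclc* in Adm+/- LPS at 144 CPM per kb (*Gpx1* at 80.6). Both *Gsto1* means rested on WT LPS replicates 9 and 11 (715 and 344 CPM). In replicate 10, *Gsto1* was at 55.5 CPM and *Gpx1* at 115 CPM. By the same mean over 12 libraries, the highest of the other classes were *Cat* at 43.6, *Sod1* at 36.6, *Mgst1* at 33.01, *Nfe2l2* at 23.7, *Txnrd1* at 21.03 and *Srxn1* at 4.85 CPM per kb. *Slc7a11*, with the largest fold changes, had a mean of 1.74 CPM per kb.

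**Figure D5:**
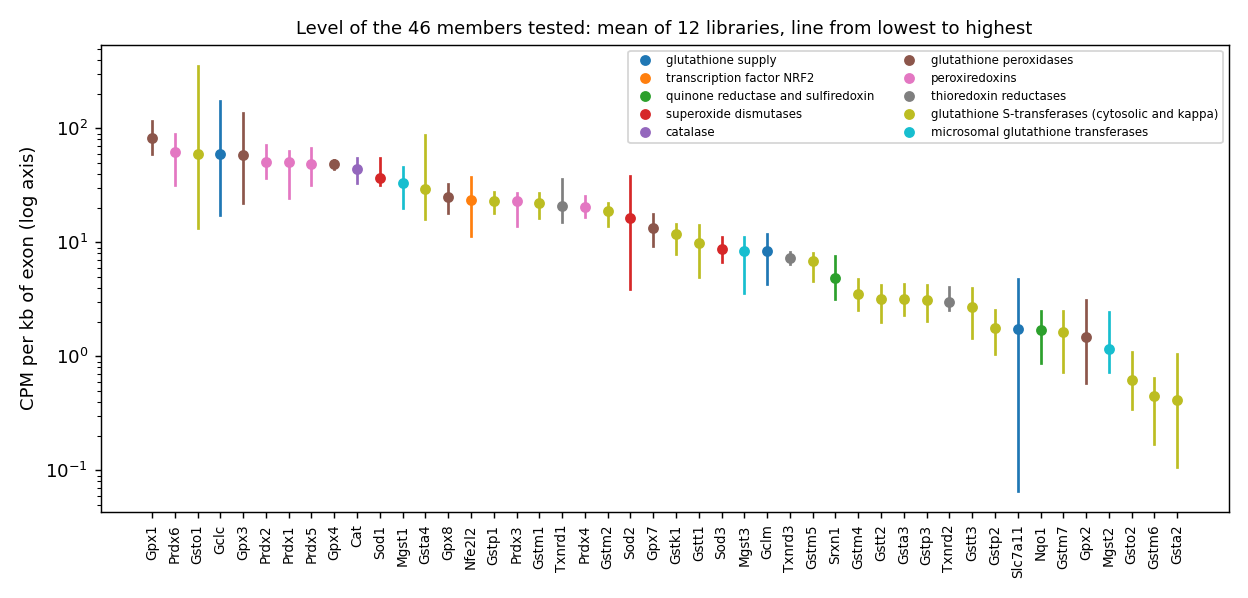
Level of the 46 members tested in CPM per kb of exon (vertical log axis), in order of the mean of 12 libraries, with a point for the mean, a line from the lowest to the highest library and colours for the classes. *Gpx1* has the highest mean at 81.7 CPM per kb, and the lines of *Slc7a11*, *Gsto1*, *Gclc* and *Sod2* are the longest among the abundant or called members, while that of *Gpx4* is short.

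Of 19 genes of enzymes that make oxidants, 16 passed the filter on low counts, and 13 of these rose in WT mice and 12 in Adm+/- mice, with median log2 fold changes of 1.99 and 1.81. Over all genes, 10.5% rose in WT and 12.8% in Adm+/- mice. Genes near 0 in PBS, *Mpo* and *Duoxa2* among them, passed that filter through LPS libraries where they were high, so these counts and medians are a description only. *Mpo*, the myeloperoxidase of neutrophil granules, was at 0 to 0.388 CPM in WT PBS, 0.986 to 2.54 CPM in WT LPS, 0.0338 to 0.158 CPM in Adm+/- PBS and 1.12 to 5.24 CPM in Adm+/- LPS. *Xdh*, xanthine dehydrogenase, rose from 59.7–145 to 285–412 CPM and from 52.0–67.0 to 359–411 CPM (1.96 and 2.72, standard errors 0.30 and 0.31, adjusted p = 0.00146 and 0.000135). *Duox2* and its maturation factor *Duoxa2*, which form an epithelial peroxide source, had the library order of *Gsto1*, with *Duox2* at 14.0, 1.12 and 9.12 CPM and *Duoxa2* at 2.99, 0.582 and 2.27 CPM in WT LPS replicates 9, 10 and 11. In Adm+/- LPS, *Duox2* was at 0.107 to 0.561 CPM and lower than in WT LPS (log2 fold change −4.71, adjusted p = 0.0208), and *Duoxa2* was at 0 to 0.187 CPM.

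Of 15 other selenoproteins and genes of selenocysteine insertion, 1 rose and 2 fell in WT mice and 1 rose and 4 fell in Adm+/- mice, which is 20% and 33.3% called, near the 17.6% and 25.0% of all genes. *Selenon*, of the endoplasmic reticulum, fell from 78.1–95.6 to 53.5–63.6 CPM (WT) and from 91.6–97.4 to 57.6–70.0 CPM (Adm+/-) (−0.57 and −0.59, standard errors 0.11 in each, adjusted p = 0.00478 and 0.0022). *Selenoh* fell by 0.60 and 0.82 (standard errors 0.19 in each, adjusted p = 0.0478 and 0.00837), and *Selenom* stood at −0.64 in WT mice (adjusted p = 0.0537) and fell by 0.94 in Adm+/- mice (standard error 0.21, adjusted p = 0.00667).

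Some cell type markers also moved with treatment, where 17.6% of all genes were called in WT and 25.0% in Adm+/- mice. Of 9 neutrophil genes, 8 rose in WT mice and 9 in Adm+/- mice, and their summed level went from 57.4–175 to 1652–2886 CPM and from 39.9–66.7 to 1569–1878 CPM. Of 8 macrophage and monocyte genes, 7 and 6 rose (194–241 CPM in PBS and 413–759 CPM in LPS over both genotypes). Type II pneumocyte genes rose for 2 and 4 of 9 (22.2% and 44.4%) and type I for 1 and 2 of 6 (16.7% and 33.3%). Club cell genes rose for 1 and 0 of 7 (14.3% and 0%) and ciliated cell genes for 0 and 1 of 8 (0% and 12.5%). The club and ciliated cell shares were below those of all genes, and the type I and WT type II shares were near them. All 7 club cell genes had log2 fold changes above 0 in both genotypes (medians 0.81 in WT and 1.96 in Adm+/- mice, with 1 and 4 at an unadjusted p under 0.05). Fibroblast genes showed 1 rise in WT mice and 1 rise and 1 fall in Adm+/- mice of 7, with a summed level of 45850 CPM in WT PBS replicate 5 against 13450 to 30450 CPM elsewhere. Of 7 smooth muscle and pericyte genes edgeR called 0 (2 and 3 at an unadjusted p under 0.05), of 3 brown fat genes tested 0 (1 and 0), and of 7 liver genes tested 2 and 1 rose. The part of these cells in the members' values was not tested.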

How the data were processed

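Bulk RNA-seq counts of 12 whole lungs, 3 mice per group, were analysed. Per the labels and the methods, the authors trimmed reads with Trim Galore, used HISAT2 for alignment to mm10 and featureCounts for counting over Gencode annotation, after rRNA depletion and a directional library kit. The Gencode release and the strand option are not given in the sources used here. The deposited values are whole-number raw counts for 52550 genes. The members and gene lists (7 pathway and 14 cell type lists) were chosen with earlier results of these data known, so no test was run over a list.

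In R 4.3.3, protein-coding genes passing edgeR's filterByExpr (15885) were normalised by TMM and tested with edgeR 4.0.16 (glmQLFit and glmQLFTest) in a single fit of all 12 libraries with 1 coefficient per group and 8 residual degrees of freedom. Adjusted p-values are Benjamini-Hochberg over all genes tested, two-sided, and calls needed an adjusted p under 0.05 and a log2 fold change beyond 0.5 in either direction. The scripts were tested on simulated counts. Total counts ran from 22382535 to 38062873, counting limits cover counting error only, and the 12 pairs of libraries within groups all differed beyond sampling noise. Positions, exon length and overlaps came from Gencode M21 (99.7% of gene IDs matched), and shared sequence is the share of 50-base words of a member's longest coding transcript found in transcripts of other genes. Erythroid and liver markers Ahsp and Tf were not found by name.

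Named were all members, called members with every library, and, of the pathway lists, genes called among the 2 largest changes of a list and contrast, with *Keap1*, *Bach1*, *Hmox1*, *Gsr* and *Txn1*. *Krt13* and *Krt4* were named after their values were seen. Alternatives were RLE size factors, no filter, DESeq2 1.42.0, limma-voom (limma 3.58.1), a test against a log2 fold change of 0.5, no limit on fold change, all annotated genes, only the groups compared, each library left out, and WT PBS replicate 5 and Adm+/- PBS replicate 6 left out together. Leaving out WT LPS replicates 9 and 11 together was added after seeing the data.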

Additional observations from a re-analysis of the deposited data

How the results depend on the processing

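The number of members called in WT mice was 17, and 6 with a test against a log2 fold change of 0.5, 5 with only the 6 WT libraries fitted, 6 without WT LPS replicates 9 and 11 together (chosen after seeing the data) and 9 to 17 with each library left out, lowest without WT LPS replicate 9. In Adm+/- mice it was 17, and 10 with the test against 0.5 and 15 to 17 with each library left out. The other settings kept both counts within 1.5 times. For the difference between genotypes in the response, 0 members became 1 with DESeq2 (*Gclc*) and 0 to 2 with each library left out, 2 being *Gsto1* and *Gsta4* without WT LPS replicate 10. For Adm+/- against WT mice in LPS, 2 members became 7 with DESeq2, 1 with limma-voom, 0 with the test against 0.5, 0 with only the groups compared, 4 without both libraries that stood apart, 0 without WT LPS replicates 9 and 11 and 0 to 5 with each library left out (0 without any of the Adm+/- LPS libraries, 5 without WT LPS replicate 10). In PBS the count was 0 under every setting. RLE size factors and no filter changed no call of a member, and no limit on fold change added *Sod3* and *Gstm4* in Adm+/- mice. Without WT LPS replicates 9 and 11, values changed sign for the difference in response of *Gsto1* (0.13) and *Gsta4* (0.20) and for *Gsta4* in LPS (0.042). *Mgst2* in Adm+/- mice, not called, ran from −0.049 to 0.184 with each library left out. The test against 0.5 is stricter by construction, a fit of only the groups compared has fewer samples, and other causes were not tested. No paired analysis was possible because the groups share no replicate numbers.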
